A study of Mus musculus with 9 samples.

Results

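The 7 genes followed here belong to the MHC class II antigen presentation pathway, and they were measured in 9 mouse RNA sequencing libraries, 2 from kidney and 7 from muscle. They are H2-Aa, H2-Ab1, H2-Eb1, H2-DMa, H2-DMb1, Cd74 and Ciita, chosen by symbol, and all 7 were found among the 24421 genes of each table. In kidney, a library from a tumour-bearing animal given PBS was set against a library from a wild type animal given PBS, with 1 library each. In muscle, the groups were tumour PBS, tumour MDC, beta-arrestin knockout with DKK1, beta-arrestin knockout with PBS and wild type with DKK1, each with 1 library, and wild type with PBS, with 2 libraries. PBS is the saline vehicle, and DKK1 is a secreted inhibitor of Wnt signalling.

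The labels give neither tumour type, strain, age, sex nor the gene deleted, they do not say what MDC is, and they do not state that the 2 wild type PBS muscle libraries came from separate animals. The tables carry set letters in their names, and the kidney pair is set A. Set B holds wild type PBS muscle library 1 with tumour PBS and tumour MDC muscle. Set C holds wild type PBS muscle library 2 with wild type DKK1 and the libraries labelled knockout. Totals were 44421797 counts in tumour kidney and 42480786 counts in wild type kidney, and 21358854 to 32607835 counts in muscle. Tissue markers followed the tissue labels. The summed level of 8 kidney tubule genes was 13033 CPM (the count scaled to library size with TMM) in tumour kidney and 26003 CPM in wild type kidney. Muscle libraries had 4.91 to 88.5 CPM. The tubule genes did not all differ in 1 direction between the kidney libraries. Kap was at 2016 CPM in tumour kidney and 18003 CPM in wild type kidney, and Umod at 6035 and 2499 CPM. The 8 skeletal muscle genes summed to 172 and 228 CPM in kidney, against 85231 to 265674 CPM in muscle. Neither beta-arrestin gene was reduced in the libraries labelled knockout: Arrb1 was at 30.7 CPM with DKK1 and 22.3 CPM with PBS, against 18.6 and 22 CPM in the wild type PBS pair, and Arrb2 was at 8.67 and 10.4 CPM, against 8.18 and 8.52 CPM. Those libraries are therefore named by their label.

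MHC class II molecules display peptides from internalised proteins to CD4+ T cells, and are made mainly by dendritic cells, macrophages and B cells. H2-Aa and H2-Ab1 encode the alpha and beta chains of the I-A molecule, and H2-Eb1 encodes the beta chain of I-E. Cd74 encodes the invariant chain, which escorts new class II molecules and fills their groove. H2-DMa and H2-DMb1 encode chains of H2-DM, which exchanges the invariant chain remnant for peptide. Ciita encodes the transactivator that switches the other genes on, and interferon gamma is a known inducer of it. In bulk tissue, fewer cells that make a transcript and less of it per cell cannot be told apart.

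Of the genes, 5 lie within 1 stretch of chromosome 17 (GRCm38, GENCODE annotation). H2-DMa is at chr17:34119541-34139101, H2-DMb1 at chr17:34153072-34160230, H2-Ab1 at chr17:34257689-34269419 and H2-Eb1 at chr17:34305867-34316674, all on the plus strand, and H2-Aa is at chr17:34282744-34287823 on the minus strand. Ciita is at chr16:10480059-10528418, on the plus strand. Class II promoters are known for an X box, which RFX binds, followed by a Y box with the sequence ATTGG on 1 strand, which NF-Y binds, and Ciita acts through the proteins bound there. The windows below, from the RefSeq promoters of the GRCm38.p6 build, show this arrangement upstream of 2 genes that were lower in tumour kidney, 1 on each strand. Capitals mark GNAACT, the start of the X box, and ATTGG.
H2-Aa, chr17:34287857-34287914, minus strand: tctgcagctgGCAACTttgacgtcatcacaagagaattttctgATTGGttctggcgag
H2-Eb1, chr17:34305766-34305822, plus strand: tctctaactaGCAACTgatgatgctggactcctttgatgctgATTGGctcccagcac
The bases between the 2 motifs numbered 27 in H2-Aa and 26 in H2-Eb1, and ATTGG began 48 and 59 bases upstream of the start. Searched on both strands in the 250 bases before the start, GNAACT was in 37.3% of 32851 promoters and ATTGG in 33.8%. GNAACT followed after 20 to 30 bases by ATTGG was in 148 promoters, or 0.451%. Promoters of 4 of the 7 genes were matched, and 3 of them (H2-Aa, H2-Eb1 and H2-DMb1) held the pair of motifs. In H2-DMb1 the pair lies downstream of the GENCODE gene start given above, so its window is not shown. The motifs and their spacing were chosen after these sequences had been read, and a match describes letters, not binding.

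The class II genes were lower in tumour kidney than in wild type kidney. Cd74, H2-Aa, H2-Ab1, H2-Eb1 and Ciita passed the size rule of 2-fold or more with 100 or more counts in the higher library, which makes 5 of 7 lower and 0 of 7 higher. Of 12897 genes with 100 or more counts, 4.17% were lower by that rule and 5.68% were higher. The median log2 difference of the 7 genes was -1.37, against 0.00 for all 12897 genes, and all 7 were below 0. With 1 library per group no test was possible, and the 95% intervals that follow cover counting error only.

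Cd74, at chr18:60803848-60812652 on the plus strand, had the largest difference of the 7, with 34327 counts (578 CPM) in tumour kidney and 136955 counts (2448 CPM) in wild type kidney. The ratio was 0.236 (95% interval 0.234 to 0.239), so Cd74 was 4.23-fold lower. By RPKM, the authors' length-scaled read count, Cd74 ranked 95 among all genes in tumour kidney and 9 in wild type kidney. H2-Aa had 1505 counts (25.4 CPM) in tumour kidney and 4991 counts (89.2 CPM) in wild type kidney, a ratio of 0.284 (0.268 to 0.301). Its partner chain H2-Ab1 had 6034 counts (102 CPM) and 14791 counts (264 CPM) in those libraries, a ratio of 0.385 (0.373 to 0.396). The intervals of H2-Aa and H2-Ab1 do not overlap, so the genes for the chains of I-A were lower by unequal amounts. H2-Eb1 had 3339 counts (56.3 CPM) in tumour kidney and 8143 counts (146 CPM) in wild type kidney, a ratio of 0.387 (0.371 to 0.403), within the interval of H2-Ab1.

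Ciita, the transactivator, had 330 counts (5.56 CPM) in tumour kidney and 774 counts (13.8 CPM) in wild type kidney. Its ratio of 0.402 (0.352 to 0.458) has an interval that contains the ratios of H2-Ab1 and H2-Eb1 and not those of H2-Aa and Cd74. The H2-DM genes differed least. H2-DMa had 1346 counts (22.7 CPM) in tumour kidney and 1824 counts (32.6 CPM) in wild type kidney, a ratio of 0.696 (0.648 to 0.747). H2-DMb1 had 877 counts (14.8 CPM) in tumour kidney and 1082 counts (19.3 CPM) in wild type kidney, a ratio of 0.764 (0.698 to 0.836). H2-DMb1 has a near-identical neighbour, H2-DMb2, so its own level is uncertain. Summed over both genes, the level was 32.0 CPM in tumour kidney and 48.2 CPM in wild type kidney.

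**Figure D1:**
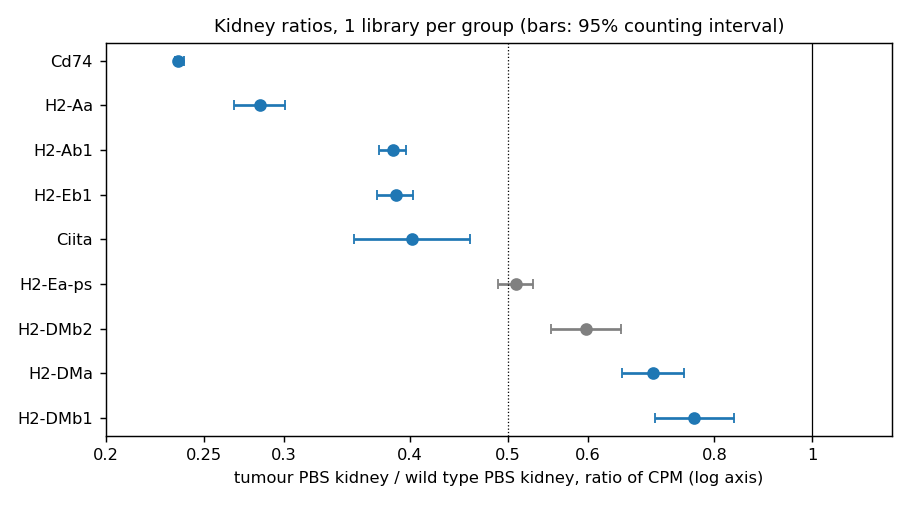
Ratio of CPM in tumour PBS kidney over wild type PBS kidney (log axis) for the 7 class II genes (blue) and the neighbouring H2-Ea-ps and H2-DMb2 (grey), with 95% counting intervals; the solid line marks a ratio of 1 and the dotted line a ratio of 0.5. Cd74 is lowest at 0.236, and H2-DMa and H2-DMb1 lie nearest to 1 at 0.696 and 0.764.

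The class II genes together took 0.108% of all counts in tumour kidney and 0.397% in wild type kidney. Cd74 was 71.9% of the counts of the 7 genes in tumour kidney and 81.2% in wild type kidney. The order of the levels per length was the same in both libraries. In tumour kidney the deposited RPKM was 546 for Cd74, 114 for H2-Ab1, 45.0 for H2-Eb1, 31.7 for H2-Aa, 18.3 for H2-DMa, 15.4 for H2-DMb1 and 1.24 for Ciita. In wild type kidney it was 2278 for Cd74, 292 for H2-Ab1, 115 for H2-Eb1, 110 for H2-Aa, 25.9 for H2-DMa, 19.8 for H2-DMb1 and 3.04 for Ciita.

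Other presentation genes in the same stretch of chromosome 17 were also lower in tumour kidney. Between H2-DMa and H2-Ea-ps the tables hold 13 genes, 11 of them with 100 or more counts in a kidney library. The 6 that are not of the class II set were all below 0, with a median log2 difference of -1.04. Of these, 3 were at or below -1, against 4.17% of 12897 genes lower by the size rule. No other region was compared. Psmb9 and Psmb8, subunits of the immunoproteasome, differed by -1.68 and -1.11, and Tap1 and Tap2, the peptide transporter of the class I pathway, by -1.51 and -0.68. All of these are counted again on the class I list below. Between these genes and H2-DMa lay H2-DMb2, at -0.74. At the other end, H2-Ea-ps had 3970 counts in tumour kidney and 7357 counts in wild type kidney, a ratio of 0.509 (0.489 to 0.529).

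**Figure D2:**
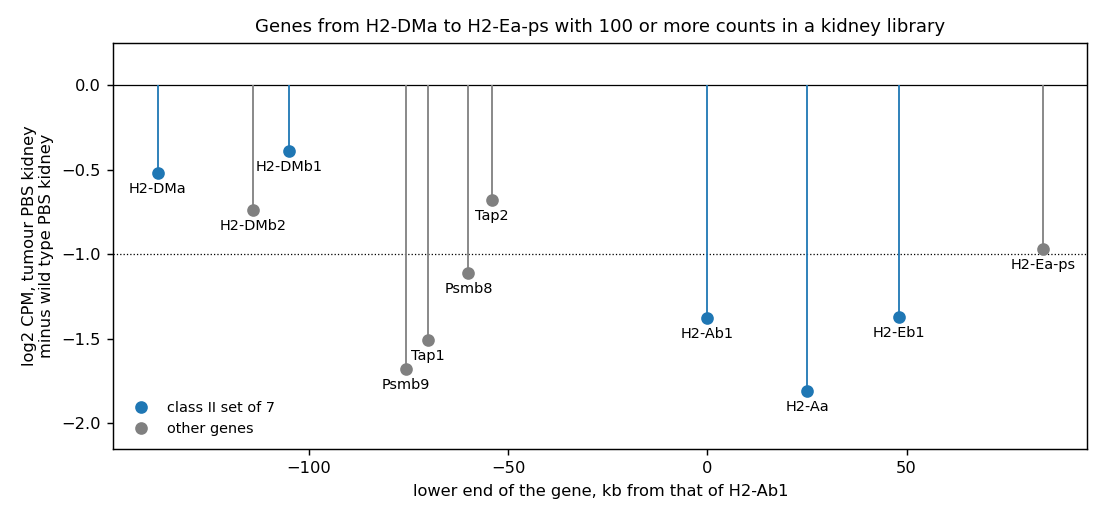
Log2 difference in CPM, tumour PBS kidney minus wild type PBS kidney, for the 11 genes between H2-DMa and H2-Ea-ps with 100 or more counts, by distance of the gene's lower end from that of H2-Ab1 in kb. Each stem is 1 gene, blue for the class II set and grey for the others, and the dotted line marks -1; all 11 lie below 0.

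Other genes of peptide loading differed less. Of 11 measured, 8 had 100 or more counts, 0 were past 2-fold in either direction, and their median was -0.13. Ctsl and Lgmn, proteases of the endosome, were at 332 and 837 CPM in tumour kidney, against 220 and 596 CPM in wild type kidney. Ctss, the protease known for cleaving the invariant chain in dendritic cells and B cells, was at 8.53 CPM in tumour kidney and 9.69 CPM in wild type kidney. H2-Oa and H2-Ob, which encode an inhibitor of H2-DM, had 2 and 13 counts in tumour kidney and 13 and 42 counts in wild type kidney, too few for the size rule. March1, which encodes a ligase that removes class II molecules from the surface, was at 3.64 CPM in tumour kidney and 4.84 CPM in wild type kidney.

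Genes listed as class II promoter factors were 8 of 8 within 2-fold, with a median of 0.04. Rfx5, the DNA-binding subunit of RFX, was lower at 11.5 CPM in tumour kidney, against 17.7 CPM in wild type kidney, a log2 difference of -0.62. Kmt2d, on the list but not a subunit of RFX or NF-Y, was also lower, at 39.7 CPM against 60.9 CPM. The other RFX subunits Rfxank and Rfxap were at -0.07 and 0.20, and the NF-Y subunits Nfya, Nfyb and Nfyc at 0.11, -0.01 and 0.10. All 8 differed less than Ciita, which was at -1.31.

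Class I presentation genes had a median of -0.44, with 3 of 15 past 2-fold lower (Psmb9, Tap1 and Psmb8) and 0 higher. B2m, the light chain of class I, had 45442 counts (766 CPM) in tumour kidney and 65975 counts (1179 CPM) in wild type kidney. The heavy chain genes H2-K1 and H2-D1 differed by -0.80 and -0.94. Nlrc5, the class I counterpart of Ciita, was at 5.02 CPM in tumour kidney and 6.24 CPM in wild type kidney. In the interferon gamma pathway, 13 of 16 genes had 100 or more counts, with 4 lower, 1 higher and a median of -0.68. The guanosine triphosphatases Iigp1 and Igtp, which interferon gamma induces, were at 7.08 and 23.5 CPM in tumour kidney, against 28.2 and 62.3 CPM in wild type kidney. The chemokine gene Cxcl10 and Cd274, which encodes PD-L1, differed by -1.10 and -1.04. Ifngr1, a chain of the receptor, was higher at 48.1 CPM in tumour kidney, against 21.0 CPM in wild type kidney. Ifng itself had 0 counts in both kidney libraries, with a floor of 3 counts at 0.0506 and 0.0536 CPM.

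**Figure D3:**
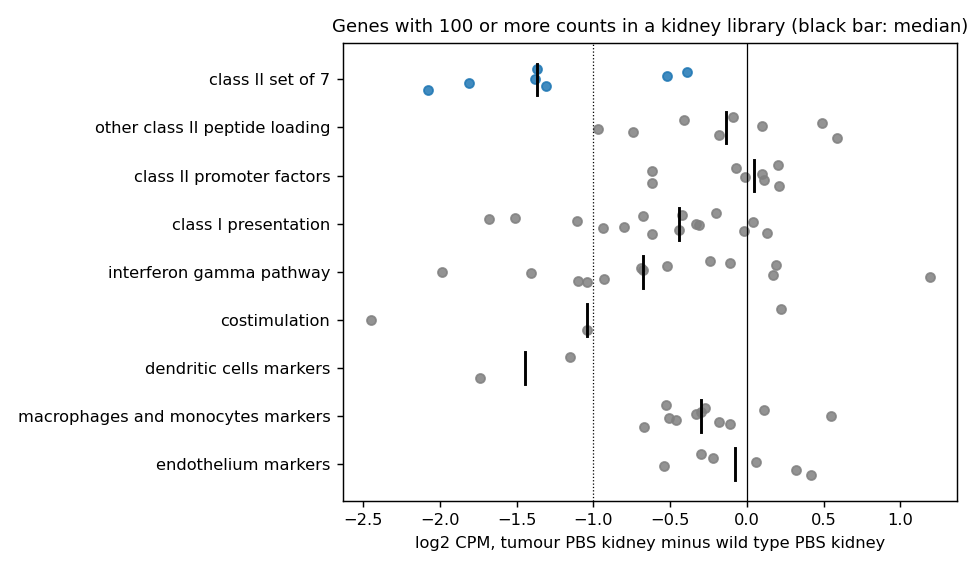
Log2 difference in CPM, tumour PBS kidney minus wild type PBS kidney, for genes with 100 or more counts in a kidney library, by gene list; each point is 1 gene, the class II set is blue, black bars are medians and the dotted line marks -1. The class II median is -1.37, the interferon gamma median -0.68 and the macrophage median -0.30; the dendritic cell list rests on 2 genes.

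Markers of the cells that carry class II moved unequally with it in kidney. The 13 macrophage and monocyte genes summed to 109 CPM in tumour kidney and 131 CPM in wild type kidney, with none at 0. Of the 11 with 100 or more counts, 0 were past 2-fold. Of those under 100 counts, Cd163, a scavenger receptor of macrophages, had 76 counts in tumour kidney and 20 counts in wild type kidney, a ratio of 3.58. In all, 9 of the 13 genes were below 0 and 4 above (Cd163, Cd68, Fcgr1 and Ly6c2). C1qa, a complement gene of resident macrophages, had 861 and 876 counts in those libraries, and Csf1r, the receptor for macrophage growth factor, had 1927 and 2288 counts. The 10 dendritic cell genes summed to 6.13 CPM in tumour kidney and 12.4 CPM in wild type kidney. Of these, Clec9a, a receptor of cross-presenting dendritic cells, had 78 counts in tumour kidney and 253 counts in wild type kidney, and Itgax, which encodes the integrin CD11c, had 51 and 111 counts. Xcr1, a chemokine receptor of the same dendritic cells as Clec9a, had 21 and 94 counts, and Ccr7, carried by migrating dendritic cells, had 0 and 40 counts. The list was not of 1 direction: 7 of its 10 genes were below 0 and 3 above, namely Siglech, a gene of plasmacytoid dendritic cells, with 35 counts in tumour kidney and 6 counts in wild type kidney, Batf3 with 41 and 27 counts, and Clec10a with 33 and 23 counts. Cd83, a maturation marker of dendritic cells on the costimulation list, had 43 counts in tumour kidney and 237 counts in wild type kidney.

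The 10 B cell genes summed to 1.90 CPM in tumour kidney and 3.68 CPM in wild type kidney, with 3 and 1 of them at 0 and none at 100 counts. The 10 T cell genes summed to 2.17 CPM in tumour kidney and 7.43 CPM in wild type kidney. The 8 neutrophil genes went the other way, at 14.3 CPM in tumour kidney and 0.822 CPM in wild type kidney. The part of these cell types in the class II difference was not tested.

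Class II levels were higher in kidney than in muscle. The 7 genes summed to 3013 CPM in wild type kidney, against 244 CPM in wild type PBS muscle library 1 and 171 CPM in library 2, that is 12.3-fold and 17.6-fold. All 7 were 2-fold or more higher in wild type kidney than in both muscle libraries, as were 24.4% of 13193 genes. The median log2 difference was 2.41 against library 1 and 2.65 against library 2. Cd74 differed most, by 16.2-fold and 32.4-fold, and H2-Ab1 was 9.50-fold and 9.63-fold higher. Kidney and muscle libraries carry different set letters, so tissue and set cannot be told apart here.

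In tumour-bearing animals the genes summed to 805 CPM in kidney and 185 CPM in PBS muscle, a 4.36-fold difference, and 6 of 7 were 2-fold or more higher in kidney, against 29% of 13281 genes. H2-Aa was the exception, at 25.4 CPM in tumour kidney and 14.9 CPM in tumour PBS muscle, a ratio of 1.71 (1.54 to 1.90). Against all 7 muscle libraries at once, tumour kidney was 2-fold or more higher for 5 genes, as were 20.1% of 13621 genes. H2-Aa was lower in tumour kidney than in 4 muscle libraries, all of set C, where it was at 27.0 to 32.0 CPM. H2-Eb1, at 56.3 CPM in tumour kidney, was less than 2-fold above the 33.3 CPM of wild type PBS muscle library 1.

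**Figure D4:**
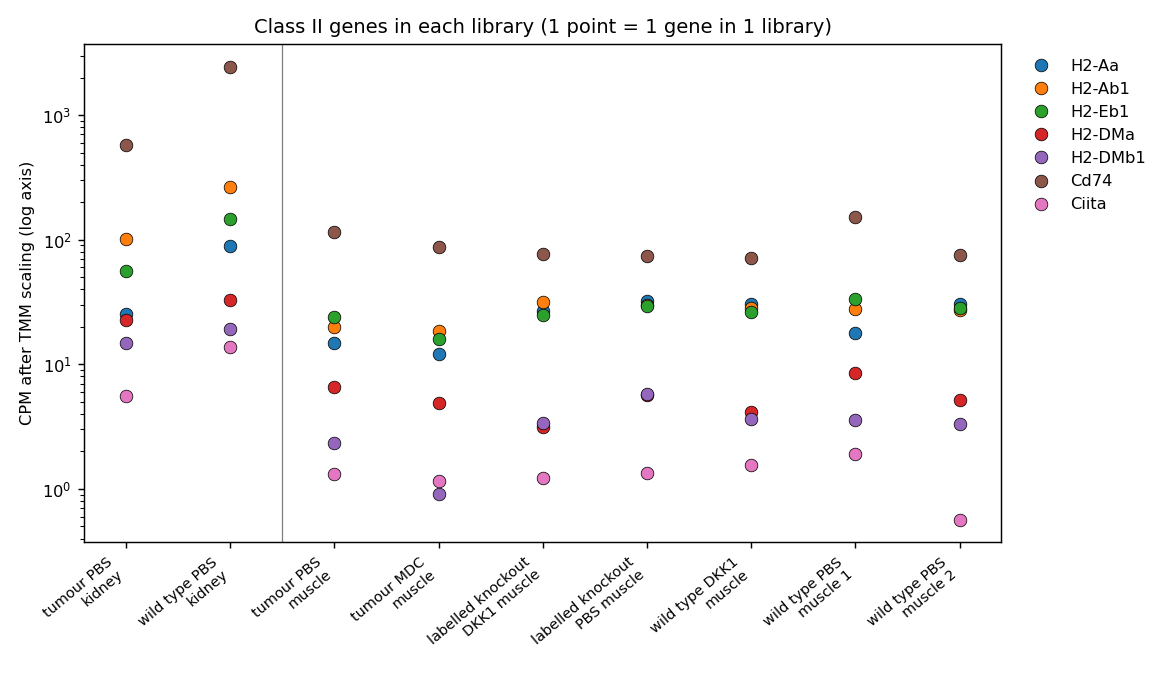
Level of each class II gene in each library, in CPM after TMM scaling on a log axis, with 1 point per gene and library; the vertical line parts kidney from muscle. Cd74 is highest throughout, from 71.0 CPM in wild type DKK1 muscle to 2448 CPM in wild type PBS kidney, and Ciita stays at or under 1.92 CPM in muscle.

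A trace of kidney transcripts was counted in muscle. Kap, a kidney tubule gene, had 1123 counts in wild type PBS muscle library 1, which is 0.111% of its counts in wild type kidney, 532 in tumour PBS muscle and 67 to 229 in the other 5. Cd74 in library 1 was 2.19% of its wild type kidney count, and H2-Ab1 3.73%.

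In muscle, tumour-bearing animals had lower class II levels than wild type PBS library 1, which shares their set. Summed over the 7 genes, the level was 185 CPM in tumour PBS muscle and 141 CPM in tumour MDC muscle, against 244 CPM in library 1 and 171 CPM in library 2. Much of each sum is Cd74, at 62.8%, 62.2%, 62% and 44.2% of the counts of the 7 genes in those libraries. Against library 1 all 7 genes were below a ratio of 1 in tumour PBS muscle, from 0.651 for H2-DMb1 to 0.837 for H2-Aa. None reached 2-fold in that pair, where 2.25% of 11044 genes were lower by the size rule. Against library 2, H2-Aa was the 1 gene past it, with 465 counts (14.9 CPM) in tumour PBS muscle and 641 counts (30.3 CPM) in library 2, against a background of 7.33% lower. Cd74 and Ciita had the opposite sign there: Cd74 was at 116 CPM in tumour PBS muscle and 75.5 CPM in library 2, and Ciita had 41 and 12 counts. The direction for Cd74, Ciita and H2-DMa thus depended on which wild type library was the reference.

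Macrophage markers went the other way from the class II genes against library 1. The macrophage genes summed to 210 CPM in tumour PBS muscle, against 71.5 CPM in library 1 and 280 CPM in library 2. Against library 1, 12 of the 12 macrophage genes with 100 or more counts were 2-fold or more higher in tumour PBS muscle, as were 8.82% of 11044 genes, while all 7 class II genes were lower. Library 1 had the lowest macrophage sum of the muscle libraries. Against both wild type PBS libraries, 1 of the 13 macrophage genes (Ly6c2) was 2-fold or more higher, so the contrast depended on the reference. Neutrophil genes summed to 351 CPM in tumour PBS muscle, against 14.4 and 0.521 CPM in the wild type pair. March1 was past 2-fold against both wild type libraries, with 114 counts (3.65 CPM) in tumour PBS muscle and 12 and 33 counts (0.606 and 1.56 CPM) in wild type PBS. It had 36 counts (1.73 CPM) in tumour MDC muscle. The part of macrophages and neutrophils in the class II transcript levels was not tested.

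With MDC, all 7 genes were below their tumour PBS level. H2-DMb1 was lowest, with 19 counts (0.916 CPM) in tumour MDC muscle and 73 counts (2.33 CPM) in tumour PBS muscle, a ratio of 0.392 (0.223 to 0.657). Both are under 100 counts, so the gene is outside the size rule, which 0 of the 7 met in this pair, where 3.52% of 11005 genes were lower by it. H2-Eb1 had 331 counts (15.9 CPM) and 743 counts (23.8 CPM) in those libraries, a ratio of 0.671 (0.588 to 0.765). Cd74 was at 87.9 CPM in tumour MDC muscle and 116 CPM in tumour PBS muscle. The intervals of H2-Ab1 and Ciita, at ratios of 0.931 and 0.882, include 1. In the same pair macrophage genes summed to 132 CPM with MDC and 210 CPM with PBS, and dendritic cell genes to 11.8 and 21.8 CPM. Neutrophil genes summed to 41.8 CPM with MDC and 351 CPM with PBS, and 7 of 8 were past 2-fold lower.

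Within set C, DKK1 and the knockout label went with small differences for most of the genes, Ciita and the H2-DM genes apart. In wild type DKK1 muscle, set against wild type PBS library 2, 6 of the 7 genes had ratios of 0.809 to 1.10, all with intervals that include 1. Ciita was at 1.56 CPM (56 counts) in wild type DKK1 muscle and 0.568 CPM (12 counts) in library 2, a ratio of 2.74 (1.45 to 5.63). Library 2 had the lowest Ciita level of all 7 muscle libraries, and against library 1 the ratio was 0.813 (0.529 to 1.26). Library 2 also had the smallest total, 21358854 counts, and 8.29% of its counts fell on Rn45s, a ribosomal RNA gene. That share was 0.359% to 2.51% in the other muscle libraries. In the library labelled knockout PBS, set against library 2, H2-Aa, H2-Ab1, H2-Eb1, H2-DMa and Cd74 had ratios of 0.975 to 1.10. H2-DMb1 had 130 counts (5.82 CPM) there and 70 counts (3.31 CPM) in library 2, and Ciita had 30 counts (1.34 CPM) and 12 counts (0.568 CPM), a ratio of 2.37 (1.18 to 5.07). Between the libraries labelled knockout, H2-DMa was at 3.13 CPM with DKK1 and 5.69 CPM with PBS, a ratio of 0.551 (0.417 to 0.724), and H2-DMb1 at 3.39 and 5.82 CPM, a ratio of 0.583 (0.446 to 0.761). Cd74 was at 76.4 CPM with DKK1 and 73.6 CPM with PBS.

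Class I and class II genes parted in the library labelled knockout DKK1 when it was set against wild type DKK1. The class II genes had 0 of 7 past 2-fold, with a median log2 difference of -0.10, and summed to 168 CPM in the library labelled knockout DKK1 and 165 CPM in wild type DKK1. The class I genes had 8 of 15 past 2-fold lower, against 10.2% of 11601 genes, and a median of -1.10. B2m had 4282 counts (141 CPM) with the knockout label and DKK1, and 14455 counts (402 CPM) in wild type DKK1. H2-K1 was at 104 CPM with the label and 256 CPM in wild type DKK1, and Tap1 at 3.63 and 10 CPM. The edgeR quasi-likelihood test called none of them, B2m having a log2 change of -1.51 ± 0.85 (SE) and an adjusted p of 1. Of 16 interferon gamma pathway genes, 5 were past 2-fold lower in the same pair (Irf1, Cxcl9, Gbp2, Iigp1 and Cd274). Class I genes summed to 818 CPM in the library labelled knockout DKK1 and 898 CPM in the one labelled knockout PBS, against 1631 CPM in wild type DKK1 and 1545 and 1349 CPM in the wild type PBS pair. Endothelial genes, which were 5 of 6 past 2-fold lower, summed to 274 CPM and 814 CPM in those libraries, and their part was not tested.

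No muscle comparison had a class II gene past the test. In edgeR's quasi-likelihood test over 15269 genes, 0 genes, or 0%, were called at an adjusted p under 0.05 in each of 8 comparisons, and the adjusted p of the 7 genes was 1 throughout. At an unadjusted p under 0.05 there were 33 to 213 genes per comparison and 0 of the 7. DESeq2 called 0 to 19 genes and limma-voom 0 genes per comparison, in neither case a class II gene. The median log2 change of the 7 genes was -0.38 for tumour PBS, -0.58 for tumour MDC, 0.02 for wild type DKK1 and 0.11 for the library labelled knockout PBS, each against wild type PBS. It was -0.40 for tumour MDC against tumour PBS, -0.24 for DKK1 against PBS in the libraries labelled knockout and -0.15 for the interaction of DKK1 with the knockout label. Standard errors were wide: H2-Aa changed by -0.69 ± 0.64 (SE) in tumour PBS muscle and Ciita by 0.08 ± 1.47 (SE). In simulated data with this spread, 10 of 67 genes changed 4-fold were recovered and 51 of 67 changed 16-fold, so changes of the size seen in kidney would mostly be missed.

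Some relations among the class II genes followed the set letter in muscle. The wild type PBS libraries, 1 from each set, differed in several of the genes. H2-Aa was at 17.8 CPM in library 1 and 30.3 CPM in library 2, Cd74 at 151 and 75.5 CPM, and Ciita at 1.92 and 0.568 CPM. By contrast H2-Ab1 was at 27.8 and 27.5 CPM, or 27.6 ± 0.255 CPM (SD, n = 2). The ratio of H2-Aa to H2-Ab1 in RPKM was 0.713 to 0.837 in the 3 muscle libraries of set B, 0.953 to 1.23 in the 4 of set C, and 0.278 and 0.377 in kidney. The ratio of Cd74 to H2-Aa in RPKM was 5.49 to 6.43 in set B, 1.74 to 2.14 in set C, and 17.2 and 20.7 in kidney. H2-DMa exceeded H2-DMb1 1.83-fold to 4.12-fold in set B, and the ratio was 0.714 to 1.21 in set C. For these 3 ratios the muscle sets do not overlap. The ratio of H2-Eb1 to H2-Ab1 in RPKM did overlap, at 0.618 to 0.857 in set B and 0.56 to 0.742 in set C.

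H2-Ea-ps also divided the muscle libraries by set. It is the gene for the alpha chain of I-E, annotated as a polymorphic pseudogene at chr17:34341959-34344645. Some inbred strains, C57BL/6 among them, carry a deletion of its promoter and make no transcript. In set B it had 517 counts in tumour PBS muscle, 221 in tumour MDC muscle and 404 in wild type PBS library 1. In set C it had 2 counts in each library labelled knockout and 0 in wild type DKK1 and wild type PBS library 2, with a floor of 3 counts at 0.0835 to 0.142 CPM. H2-DMb2 took 52.0% to 59.6% of the counts of the H2-DMb genes in set B and 11.5% to 13.6% in set C, against 53.8% in tumour kidney and 59.9% in wild type kidney. Class II genes are among the most polymorphic of the mouse, and reads of an allele unlike the reference can be lost in alignment. The labels give no strain, so strain and set cannot be told apart. Wild type PBS is the only muscle group in both sets, with H2-Ea-ps at 404 counts in set B and 0 in set C. Every other muscle group lies in a single set, so group and set cannot be told apart there. Both kidney libraries had H2-Ea-ps reads, as had all of set B.

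**Figure D5:**
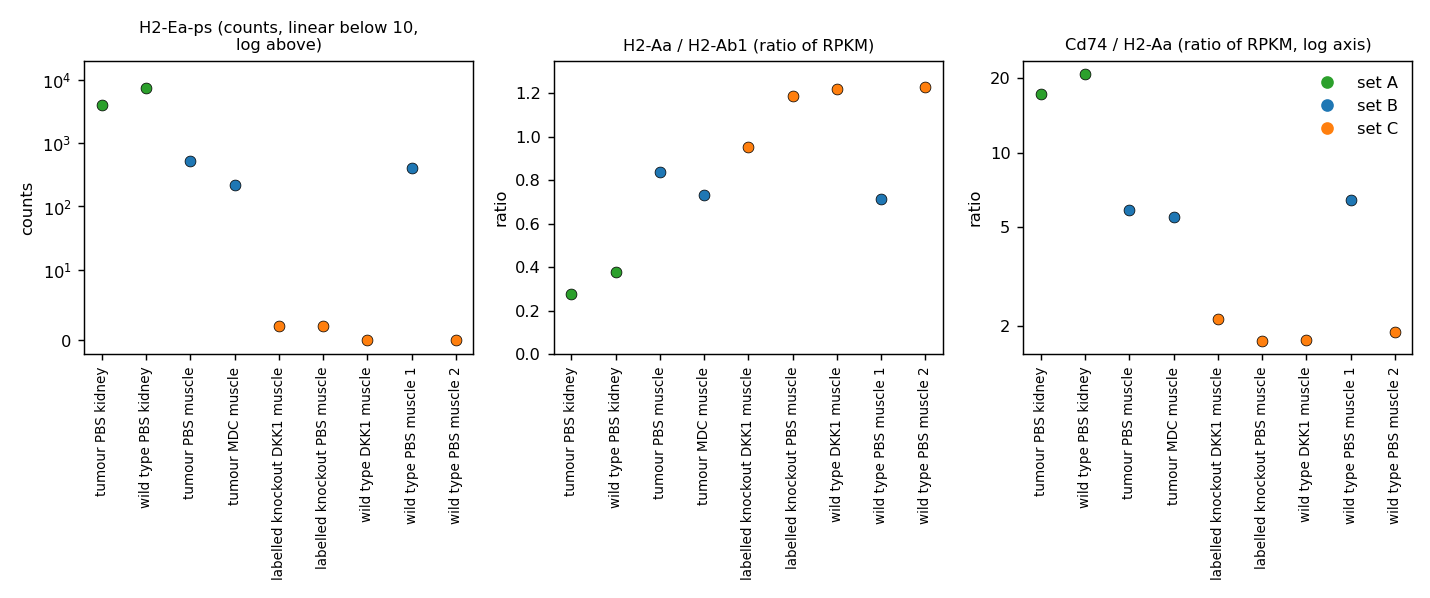
Counts of H2-Ea-ps (left, linear below 10 and log above), ratio of H2-Aa to H2-Ab1 (middle) and ratio of Cd74 to H2-Aa (right, log axis), both in RPKM, in each library; 1 point per library, coloured by set letter. H2-Ea-ps has 221 to 7357 counts in sets A and B and at most 2 in set C, and the ratios of the muscle sets do not overlap.

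Genes were also ranked by their likeness to the mean of the class II set across muscle. The 7 genes did not share 1 pattern there. Pearson r between them ranged from -0.64 (H2-Aa with Cd74) to 0.90 (H2-Eb1 with H2-DMb1), so the mean blends unlike patterns. The mean centred log2 CPM of the 7 genes was highest in wild type PBS library 1, at 0.36, and lowest in tumour MDC muscle, at -0.55. Of 10683 genes with a mean of 100 or more counts, those most like it over the 7 libraries were Lzic and Ubr7 (Pearson r = 0.97 each), Fuca2 and Cdc16 (0.96 each), Spata7 (0.95), Coa7, Ptx3, Ttll1 and Snap29 (0.94 each) and Rmi2 (0.93). Ubr7 was at 29.7 CPM in tumour MDC muscle and 39.1 CPM in library 1, and Rmi2 at 2.46 and 8.33 CPM in those libraries. These values rest on 7 points that share sets and scaling, and describe likeness of pattern only. None of the 10 is on the lists of presentation genes or cell markers used here.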

How the data were processed

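RNA sequencing tables of 9 libraries, 1 table each, were used. Each deposited table gives unnormalised read counts by gene symbol, and beside them RPKM that the authors derived from these counts and a gene length. RPKM recomputed from the deposited counts was within 0.0005% for genes with 100 or more counts, and was used only to compare genes within a library. Reads were aligned with HISAT2 2.1.0 to mm10, per the submitters' processing notes. How reads were counted (program, annotation, strand, multiply mapped reads) is not given in the sources used here, so overlapping genes and near-identical copies are uncertain.

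Counts were scaled by TMM over all 9 libraries, and log2 CPM used a prior count of 2 (edgeR 4.0.16, R 4.3.3). The 7 muscle libraries were fitted with edgeR's quasi-likelihood model, 1 coefficient per group, after filterByExpr (minimum count 10, 15269 genes), with Benjamini-Hochberg adjustment. Only the wild type PBS pair gives residual spread (1 degree of freedom, biological coefficient of variation 0.498). That spread was pooled across genes (median prior degrees of freedom 13.6), so each p-value rests mostly on the pair's spread over all genes. The libraries of the pair come from different sets, and the labels do not state that they came from separate animals. Library 1 had 404 counts of H2-Ea-ps and library 2 had 0, and Igtp was at 542 and 18.8 CPM. The muscle comparisons with wild type PBS share that pair. In kidney, ratios have exact conditional binomial 95% intervals, which cover counting error only. Floors are 3 counts. List medians cover genes with 100 or more counts in the higher library of a pair. DESeq2 1.42.0, limma 3.58.1, other scalings and leaving out each wild type PBS library were alternatives. The fit was checked on simulated data with 200 changed genes. Named genes were all 7 class II genes and, from other lists, those with the largest kidney ratios past the size rule, cell type defining markers, and up to 10 genes of like pattern. Further genes, such as Kap, March1 and subunits of RFX and NF-Y, were picked once their values had been seen, as was the setting of class I beside class II genes in the library labelled knockout DKK1. The genes and lists were chosen with earlier results of these data known.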

Additional observations from a re-analysis of the deposited data

How the results depend on the processing

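No paired analysis was possible because replicate numbers are given to 1 group alone, and a term for the set letter in muscle would use up the 1 residual degree of freedom. Over 20 summary results and 123 alternative values, 120 stayed within the spread allowed (a factor of 1.5 for counts, 0.44 log2 for medians in comparisons with a wild type pair or within muscle, 0.19 log2 for the other medians with kidney). The 3 that moved came from scaling by total counts: the median log2 difference of the class II genes was 3.09 between wild type kidney and wild type muscle (2.47 with TMM), 2.50 between tumour kidney and tumour PBS muscle (2.03 with TMM) and 0.48 for wild type DKK1 against wild type PBS muscle (0.02 with TMM). The cause was not tested. The kidney count was 5 of 7 under every alternative run, including a 1.5-fold rule, and the kidney median was -1.37 to -1.35. No class II gene was called in muscle by edgeR without a filter on low counts, with all 9 libraries in the fit or with any scaling, nor by DESeq2 or limma-voom. Leaving out 1 wild type PBS muscle library turned the sign of 3 medians, none of them called: they ranged from -0.30 to 0.01 for wild type DKK1, from -0.17 to 0.13 for the library labelled knockout PBS and from -0.25 to 0.07 for the interaction. Kidney has 1 library per group, so no replicate spread supports those differences, and muscle counts of Ciita (12 to 56) and H2-DMb1 (19 to 131) are low.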
